A study of Homo sapiens with 4 samples.

Results

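Hematopoietic lineage transcription factors decide which blood lineage a progenitor enters. They work in small complexes that often oppose one another. GATA1 and GATA2 serve erythroid, megakaryocytic, mast cell and basophil genes, and ZFPM1 (FOG1) is a partner of theirs. SPI1 (PU.1) serves myeloid genes, and both RUNX1, bound to CBFB, and MYB serve progenitors of many lineages. ID proteins carry no DNA-binding domain and hold back the E proteins, and GFI1 and GFI1B are repressors that recruit the histone demethylase KDM1A (LSD1). The 47 members described here are such factors with their direct partners and inhibitors, chosen by gene symbol. Each of the 47 symbols was found once among the 60662 genes measured.

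RNA was sequenced from NB4, an established human line of acute promyelocytic leukemia (the M3 subtype) that carries the PML-RARα fusion. The cells of 2 libraries had received the control vector and those of 2 libraries the JMJD3-expression vector, with no other treatment named. JMJD3, encoded by KDM6B, is an enzyme that takes methyl groups off H3K27, a mark of silenced genes, and the comparison asks what its forced expression does to gene expression in these cells. The vectors were lentiviral and carried GFP per the study's methods, so each group is a transduced pool of 1 cell line, not a set of clones. Whether replicates were transduced or cultured apart is not stated, so the p-values measure the spread between these libraries, which may be technical. Sequencing used lane 20 for vector replicate 1, and lane 17 for the 3 libraries besides. The libraries held between 34190262 and 41876210 reads assigned to genes. A library with 0 reads of a gene could still hold up to 3, which comes to between 0.0671 and 0.0925 CPM (counts scaled to library size), a limit for counting error only.

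KDM6B itself was measured first, since it checks the labels. It stood at 15.8 and 13.7 CPM in the vector libraries and 37.8 and 44.2 CPM in the JMJD3 libraries, so both JMJD3 libraries lay above both vector libraries (log2 fold change 1.48 ± 0.13, 1.53 within lane 17, edgeR adjusted p = 0.00114). Here and below a log2 fold change is JMJD3 over vector with its standard error, from edgeR's quasi-likelihood test on 2 libraries against 2, and p-values are Benjamini-Hochberg adjusted over all genes tested. The value within lane 17 sets vector replicate 2 alone against both JMJD3 libraries and assumes that the lone library varies as the other group does. Transcripts of the vector and of the cell's own KDM6B gene cannot be told apart in these counts.

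Of the 47 members, 39 had enough counts to be tested, and 15 were higher and 5 lower in JMJD3 cells at an adjusted p under 0.05 in edgeR. Among all 15246 genes tested 21.6% were higher and 19.1% lower, against 38.5% and 12.8% of the tested members. A change of at least 2-fold was reached by 5 members upward and 2 downward, where the shares of all tested genes were 7.55% and 2.82%. The median log2 fold change was 0.082 over the tested members and 0.041 over all tested genes. IKZF2, counted among the 15, passed the filter on low counts only through its JMJD3 libraries and so had to differ. Without it 14 of 38 tested members (36.8%) were higher, 4 of them by at least 2-fold, and the median was 0.071. Over all genes, leaving out those that passed only through 1 group gave 20.8% higher, 912 of 14668 by at least 2-fold and a median of 0.026. The counts over all tested members changed when 1 library was left out, as did those over all tested genes. Both ranges are given below with the other alternatives. No called member changed direction. The 2-fold rises numbered 3 without JMJD3 replicate 2 and 3 without vector replicate 2. In a pool of cells, a lower level can come from fewer cells that express a gene or from less RNA in each cell, and these cannot be told apart.

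**Figure D1:**
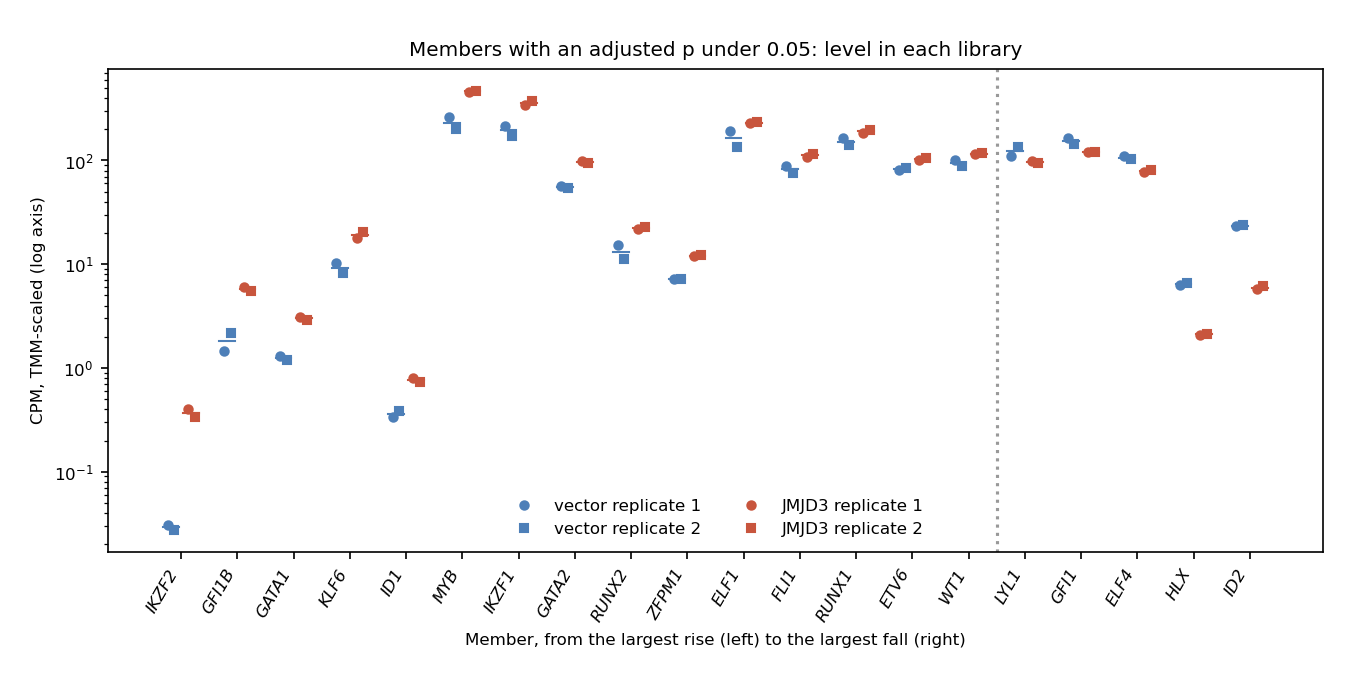
CPM on a log axis for each of the 20 members with an adjusted p under 0.05 in edgeR, with circles for replicate 1, squares for replicate 2, blue for vector, red for JMJD3 and a line at each group's mean. The dotted line parts the 15 higher members from the 5 lower ones.

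Levels of different genes can be compared only per length, as FPKM (fragments scaled to transcript length and library size). The members with the highest mean FPKM over the 4 libraries were SPI1, MYB, TCF3, LYL1 and ELF1. SPI1, the master factor of myeloid cells, had 204 and 246 FPKM in the vector libraries and 189 and 169 FPKM in the JMJD3 libraries and was the most abundant member in vector cells. MYB, which keeps progenitors cycling, had 116 and 80.5 FPKM in the vector libraries and 198 and 212 FPKM in the JMJD3 libraries. It ranked 4 among the 47 in vector cells and 1 in JMJD3 cells, and the ratio of MYB to SPI1 was 0.567 and 0.328 in the vector libraries and 1.05 and 1.26 in the JMJD3 libraries. TCF3, which encodes the E proteins E12 and E47, had 147 and 152 FPKM in the vector libraries and 131 and 129 FPKM in the JMJD3 libraries. LYL1, a partner of the E proteins related to TAL1, had 99.1 and 124 FPKM in the vector libraries and 85.0 and 82.4 FPKM in the JMJD3 libraries, and the ETS factor ELF1 had 79.8 and 49.0 FPKM in the vector libraries and 98.1 and 108 FPKM in the JMJD3 libraries. In vector cells 23 members had a mean of at least 10 FPKM and 14 a mean under 1, and in JMJD3 cells these numbers were 23 and 13.

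**Figure D2:**
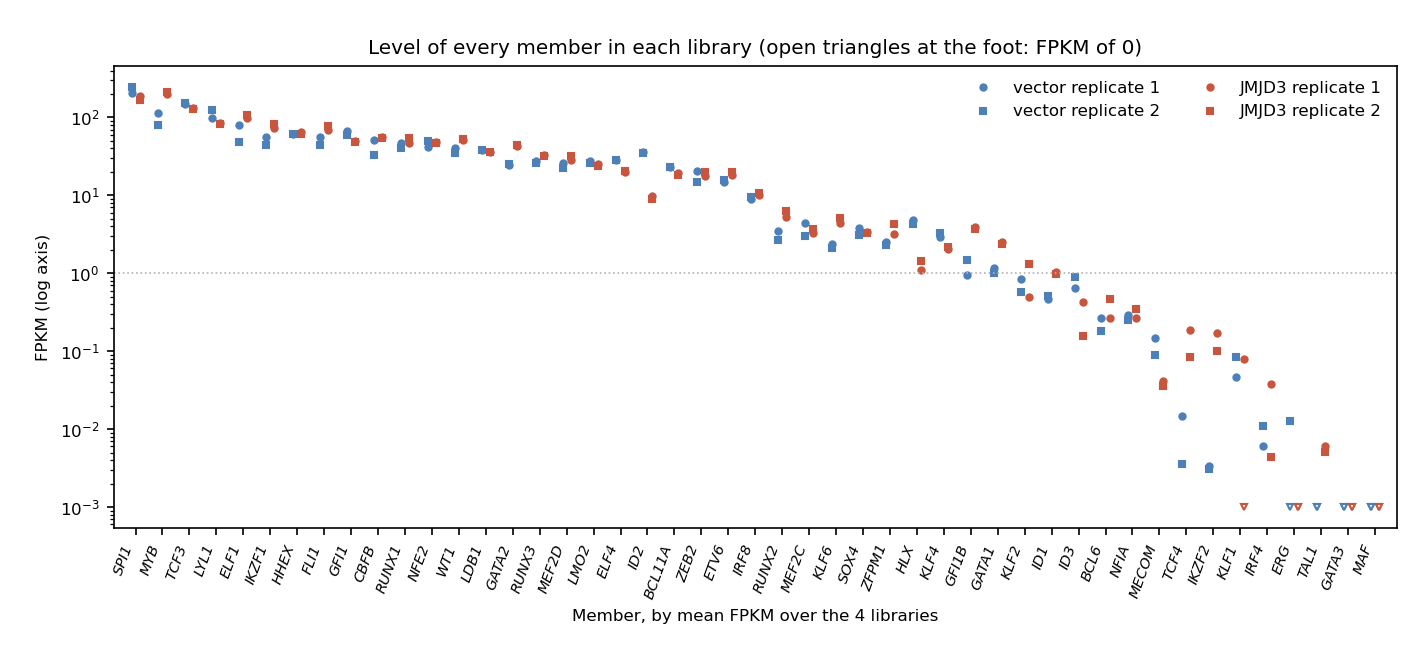
FPKM on a log axis for all 47 members in each of the 4 libraries, ordered by the mean over the libraries, with blue for vector, red for JMJD3, circles for replicate 1 and squares for replicate 2. The dotted line marks 1 FPKM, open triangles stand for a value of 0, and GATA3 and MAF were at 0 in all 4 libraries.

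The low end of the list held factors of other lineages. GATA3, IRF4, TAL1, ERG, KLF1, TCF4, MAF and MECOM had at most 4 reads in any library and were not tested. Among them GATA3 directs T cells, IRF4 plasma cells, KLF1 red cells and TAL1 stem and erythroid cells. No difference could be detected for these 8 at this depth.

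GATA1, GATA2 and their partner ZFPM1 all rose. GATA2, the GATA factor of progenitors, mast cells and basophils (ENSG00000179348, chr3:128479422-128493201 in GRCh38.p14, as all positions here), stood at 57.1 and 54.7 CPM in the vector libraries and 98.3 and 94.4 CPM in the JMJD3 libraries (log2 fold change 0.78 ± 0.086, 0.77 within lane 17, edgeR adjusted p = 0.00191). GATA1, the factor of red cells and megakaryocytes (ENSG00000102145, chrX:48786590-48794311), stood far lower at 1.30 and 1.21 CPM in the vector libraries and 3.11 and 2.91 CPM in the JMJD3 libraries (log2 fold change 1.27 ± 0.18, 1.27 within lane 17, edgeR adjusted p = 0.00365). Their groups did not overlap, and per length GATA2 exceeded GATA1 by 21.5-fold and 25.4-fold in the vector libraries and 17.1-fold and 18.2-fold in the JMJD3 libraries. The summed FPKM of both was 26.0 and 26.4 with the vector and 45.0 and 46.2 with JMJD3. ZFPM1 (ENSG00000179588, chr16:88451769-88537031), the cofactor that GATA1 binds, had 7.22 and 7.21 CPM in the vector libraries and 12.0 and 12.2 CPM in the JMJD3 libraries (log2 fold change 0.75 ± 0.11, 0.71 within lane 17, edgeR adjusted p = 0.00402). All ZFPM1 values with JMJD3 lay above those with the vector, but the call was lost in both tests on FPKM, where the JMJD3 libraries differed more from each other. GATA3 had 0 reads in each library.

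GFI1 and GFI1B, repressors of the same kind, moved in opposite directions. GFI1B, the relative used in red cells and megakaryocytes (ENSG00000165702, chr9:132945531-132993434), stood at 1.45 and 2.17 CPM in the vector libraries and 6.08 and 5.50 CPM in the JMJD3 libraries (log2 fold change 1.67 ± 0.21, 1.37 within lane 17, edgeR adjusted p = 0.00250). This was the largest rise among members with a mean of at least 1 FPKM. GFI1, the relative used in neutrophil precursors and stem cells, fell from 165 and 143 CPM to 120.5 and 120.2 CPM (log2 fold change -0.36 ± 0.094, edgeR adjusted p = 0.0239). That call was lost in 3 of 14 alternatives, those without JMJD3 replicate 1 and without JMJD3 replicate 2 among them, where the log2 fold change was -0.36 and -0.35. GFI1 remained the more abundant of the pair, with an FPKM 71.2-fold and 41.1-fold that of GFI1B in the vector libraries and 12.7-fold and 13.4-fold in the JMJD3 libraries. The exons of TSC1 on the opposite strand cover 5.72% of the exon bases of GFI1B, and the library kit does not keep the strand, so reads there cannot be assigned to either gene with certainty. TSC1 itself stood at 30.7 and 25.8 CPM in the vector libraries and 24.6 and 28.3 CPM in the JMJD3 libraries, with overlapping groups.

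The promoters of the 2 members that rose most and of the 2 that fell most, among those past 2-fold with a mean of at least 1 FPKM in a group, were read from RefSeq (GRCh38.p14), since GATA factors were among the genes that moved. Each line gives the 250 bases before a start site, 5′ to 3′ on the gene's strand, which is the plus strand for all of them. Capitals mark a GATA motif (AGATAA or TGATAA, with G also allowed as the last letter, on either strand). The RUNX motifs TGTGGT and TGCGGT, also searched on both strands, occur in none of these windows.
GFI1B first start, chr9:132945281-132945530: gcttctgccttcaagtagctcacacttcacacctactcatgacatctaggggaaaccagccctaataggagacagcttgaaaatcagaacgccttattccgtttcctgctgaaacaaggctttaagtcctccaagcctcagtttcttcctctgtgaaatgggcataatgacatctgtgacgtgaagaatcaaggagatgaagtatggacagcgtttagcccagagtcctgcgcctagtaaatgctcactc
GFI1B second start, chr9:132978444-132978693: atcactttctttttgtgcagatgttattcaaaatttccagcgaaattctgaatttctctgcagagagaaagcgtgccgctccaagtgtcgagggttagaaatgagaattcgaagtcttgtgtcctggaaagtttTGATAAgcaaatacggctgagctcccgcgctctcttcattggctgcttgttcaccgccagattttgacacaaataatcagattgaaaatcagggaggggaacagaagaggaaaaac
GATA1, chrX:48786340-48786589: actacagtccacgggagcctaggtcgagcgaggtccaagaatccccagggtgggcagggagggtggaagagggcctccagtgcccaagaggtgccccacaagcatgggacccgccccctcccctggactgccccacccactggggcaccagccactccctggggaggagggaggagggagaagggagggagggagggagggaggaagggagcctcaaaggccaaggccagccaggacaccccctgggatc
ID2, chr2:8681806-8682055: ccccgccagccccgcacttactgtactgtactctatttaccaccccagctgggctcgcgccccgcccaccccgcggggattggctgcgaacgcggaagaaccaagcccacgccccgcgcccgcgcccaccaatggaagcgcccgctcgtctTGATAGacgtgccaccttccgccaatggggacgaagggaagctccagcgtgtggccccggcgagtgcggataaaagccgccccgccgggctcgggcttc
HLX, chr1:220879193-220879442: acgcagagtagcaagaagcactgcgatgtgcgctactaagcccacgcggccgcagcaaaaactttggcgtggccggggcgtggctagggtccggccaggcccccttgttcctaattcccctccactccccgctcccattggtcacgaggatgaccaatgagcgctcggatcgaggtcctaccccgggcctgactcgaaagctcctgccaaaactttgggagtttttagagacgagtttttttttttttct

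The second start of GFI1B holds a TGATAA that begins 116 bases before the start, and ID2 holds a TGATAG that begins 99 bases before it. The other 3 windows hold neither motif. RefSeq gave 92 such windows for 42 of the 47 members, with CBFB, FLI1, LMO2, NFE2 and SPI1 absent. A GATA motif was present in 23.9% of the members' windows and in 22.3% of all 35116 windows of the same length. For the RUNX motifs these shares were 16.3% and 16.3%. Among the 15 higher members, 5 of 25 windows held a GATA motif, and among the 5 lower members 4 of 9. These are matches of letters, and binding at them was not measured here.

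Of the RUNX members, RUNX1 and RUNX2 rose and RUNX3 and CBFB did not pass the test. RUNX2, best known from bone (ENSG00000124813, chr6:45328330-45551082), stood at 15.3 and 11.2 CPM in the vector libraries and 21.6 and 22.9 CPM in the JMJD3 libraries (log2 fold change 0.75 ± 0.16, 0.95 within lane 17, edgeR adjusted p = 0.0115), a call lost with no filter on low counts. RUNX1, which stem cells need to form, gave log2 fold change 0.34 ± 0.097, edgeR adjusted p = 0.0328. That call was lost in 5 of 14 alternatives, among them both fits that leave out a JMJD3 library and both tests on FPKM. The log2 fold change of RUNX1 was 0.38 without JMJD3 replicate 1, 0.29 without JMJD3 replicate 2 and 0.19 in both tests on FPKM. The shared subunit CBFB had 106 and 85.2 CPM in the vector libraries and 101 and 93.2 CPM in the JMJD3 libraries, and these groups overlapped (log2 fold change 0.021 ± 0.12, edgeR adjusted p = 0.899). On FPKM they did not, at 51.4 and 33.2 FPKM in the vector libraries and 55.9 and 55.2 FPKM in the JMJD3 libraries, with log2 fold changes of 0.42 and 0.42 in the 2 tests on FPKM, and CBFB passed neither. RUNX3 had 89.6 and 90.6 CPM in the vector libraries and 86.7 and 90.1 CPM in the JMJD3 libraries, again overlapping (log2 fold change -0.027 ± 0.081, edgeR adjusted p = 0.808). Its sign turns with upper quartile scaling and in the tests on FPKM, and that of CBFB with the DESeq2 size factors. The summed FPKM of RUNX1, RUNX2 and RUNX3 was 78.8 and 69.4 with the vector and 85.5 and 92.2 with JMJD3.

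MYB (ENSG00000118513, chr6:135181308-135219172) rose. Its level was 263 and 201 CPM in the vector libraries and 458 and 468 CPM in the JMJD3 libraries (log2 fold change 1.00 ± 0.13, 1.16 within lane 17, edgeR adjusted p = 0.00262), so the JMJD3 libraries lay close together and well above both vector libraries. The Ikaros factor IKZF1 (ENSG00000185811, chr7:50303455-50405101), a zinc finger regulator of lymphoid and myeloid cells, had 217 and 173 CPM in the vector libraries and 343 and 375 CPM in the JMJD3 libraries (log2 fold change 0.88 ± 0.12, 1.01 within lane 17, edgeR adjusted p = 0.00298). Both calls held in all 14 alternatives. IKZF2 (Helios), which is known from T cells (ENSG00000030419, chr2:212999698-213152456), had 1 read in each vector library and 15 in each JMJD3 library. After library scaling this is a ratio of 12.6 with an exact 95% counting interval from 3.20 to 109. IKZF2 stayed under 1 FPKM in all 4 libraries, and its call was lost in limma's test on log2(FPKM + 1). Without JMJD3 replicate 1, and where every library had to hold at least 10 counts, it was not tested.

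The ETS factors bind GGAA cores and include the main myeloid factor SPI1. Of 5 tested, 3 rose, 1 fell and SPI1 did not pass. The calls were 60% higher and 20% lower, against 21.6% and 19.1% of all tested genes. SPI1 (ENSG00000066336, chr11:47354860-47378547) had 217 and 254 CPM in the vector libraries and 205 and 182 CPM in the JMJD3 libraries (log2 fold change -0.29 ± 0.11, edgeR adjusted p = 0.0711). Both JMJD3 values lay below both vector values, and within lane 17 and in the DESeq2 Wald test SPI1 passed as lower, with a log2 fold change of -0.44 within lane 17 and -0.17 without vector replicate 2. ELF1 (ENSG00000120690, chr13:40931919-41061386), an activator in lymphoid and myeloid cells, had 192 and 135 CPM in the vector libraries and 228 and 234 CPM in the JMJD3 libraries (log2 fold change 0.50 ± 0.16, 0.73 within lane 17, edgeR adjusted p = 0.0430), with the vector libraries further apart than the JMJD3 libraries and a log2 fold change of 0.26 without vector replicate 2. FLI1, a megakaryocyte factor, gave log2 fold change 0.46 ± 0.10, edgeR adjusted p = 0.0148, and ETV6, a repressor needed by stem cells, log2 fold change 0.32 ± 0.084, edgeR adjusted p = 0.0238. ELF4, a relative of ELF1, fell by 0.42 ± 0.084 on the log2 scale (edgeR adjusted p = 0.00996). The calls of FLI1, ETV6 and ELF4 were lost without JMJD3 replicate 1 and without JMJD3 replicate 2. The log2 fold changes there were 0.51 and 0.41 for FLI1, 0.37 and 0.28 for ETV6 and -0.39 and -0.44 for ELF4. The calls of ELF1 and ETV6 were lost in both tests on FPKM. Their log2 fold changes on FPKM were 0.72 and 0.71 for ELF1 and 0.32 and 0.30 for ETV6. With no filter on low counts the calls of ELF1, ETV6 and FLI1 were lost. ERG had 2 reads in vector replicate 2 and 0 in the other libraries.

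In the TAL1 complex, the scaffold genes did not pass the test. TAL1 was at 0 reads in the vector libraries and 1 in each JMJD3 library. LMO2 and LDB1, which bridge TAL1 to GATA factors, had log2 fold changes of -0.042 ± 0.096 and -0.050 ± 0.084 (edgeR adjusted p = 0.749 and 0.659). LYL1 (ENSG00000104903, chr19:13099033-13102858), which can stand in for TAL1, had 111 and 135 CPM in the vector libraries and 99.0 and 94.7 CPM in the JMJD3 libraries (log2 fold change -0.35 ± 0.11, -0.53 within lane 17, edgeR adjusted p = 0.0450). Without vector replicate 2 LYL1 was at -0.20. The LYL1 groups did not overlap, but the call was lost in 7 of 14 alternatives, with upper quartile scaling and each JMJD3 library left out among them.

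The ID inhibitors did not move as a group. ID2 (ENSG00000115738, chr2:8682056-8684461) stood at 23.4 and 23.8 CPM in the vector libraries and 5.71 and 6.15 CPM in the JMJD3 libraries (log2 fold change -1.99 ± 0.11, -2.05 within lane 17, edgeR adjusted p = 0.000375), the largest fall of any tested member in the fit of all 4 libraries. ID1 (ENSG00000125968, chr20:31605289-31606510) was far less abundant at 0.339 and 0.384 CPM in the vector libraries and 0.804 and 0.738 CPM in the JMJD3 libraries and rose (log2 fold change 1.04 ± 0.31, 0.92 within lane 17, edgeR adjusted p = 0.0363). With 11 and 14 reads in the vector libraries and 30 and 33 in the JMJD3 libraries, the ID1 call was lost in 6 of 14 alternatives. Each of the 4 fits that leave out a library was among them, with log2 fold changes between 0.92 and 1.12. ID3 had 0.617 and 0.878 CPM in the vector libraries and 0.429 and 0.157 CPM in the JMJD3 libraries and did not pass (log2 fold change -1.31 ± 0.47, edgeR adjusted p = 0.0636), although it did without JMJD3 replicate 1, where it was -2.17, against -0.78 without JMJD3 replicate 2. Per length, ID2 gave 97.0% and 96.1% of the summed FPKM of ID1, ID2 and ID3 in the vector libraries and 87.0% and 88.6% in the JMJD3 libraries. That sum was 37.3 and 36.3 with the vector and 11.3 and 10.1 with JMJD3. TCF3 (ENSG00000071564, chr19:1609292-1652615), the E protein gene that ID proteins act against, had 251 and 264 CPM in the vector libraries and 229.7 and 236 CPM in the JMJD3 libraries. It did not pass (log2 fold change -0.14 ± 0.075, edgeR adjusted p = 0.162), except within lane 17, where its log2 fold change was -0.22.

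HLX (ENSG00000136630, chr1:220879443-220885059), a homeobox factor of myeloid progenitors, showed the second largest fall at 6.29 and 6.61 CPM in the vector libraries and 2.09 and 2.15 CPM in the JMJD3 libraries (log2 fold change -1.60 ± 0.15, -1.68 within lane 17, edgeR adjusted p = 0.00123). HHEX, a homeobox factor of early blood and endothelial cells, had 85.1 and 83.0 CPM in the vector libraries and 90.3 and 84.8 CPM in the JMJD3 libraries, with overlapping groups (log2 fold change 0.059 ± 0.084, edgeR adjusted p = 0.600). Of the Kruppel-like factors, KLF6 (ENSG00000067082, chr10:3775996-3785209) rose from 10.3 and 8.20 CPM to 17.8 and 20.4 CPM (log2 fold change 1.05 ± 0.15, 1.18 within lane 17, edgeR adjusted p = 0.00334). KLF4, which promotes monocytes, and KLF2, which keeps lymphocytes quiescent, had log2 fold changes of -0.33 ± 0.14 and -0.52 ± 0.37 and did not pass (edgeR adjusted p = 0.0972 and 0.295). KLF4 passed as lower without vector replicate 2. KLF2 was at -0.12 without JMJD3 replicate 1 and -1.05 without JMJD3 replicate 2, and its sign turned in both tests on FPKM.

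Among the remaining members, WT1, a zinc finger factor often high in leukemia, gave log2 fold change 0.30 ± 0.098, edgeR adjusted p = 0.0485. The WT1 call was lost in 7 of 14 alternatives, the DESeq2 size factors and each JMJD3 library left out among them, with a log2 fold change of 0.31 without JMJD3 replicate 1 and 0.29 without JMJD3 replicate 2. It was also lost without vector replicate 2, at 0.19. Its antisense gene WT1-AS overlaps 0.578% of its exon bases and stood at 7.77 and 7.43 CPM in the vector libraries and 17.1 and 19.0 CPM in the JMJD3 libraries. No call was made for IRF8, ZEB2, BCL6, BCL11A, MEF2C, MEF2D, NFE2, NFIA or SOX4, whose log2 fold changes lay between -0.42 for NFIA and 0.50 for BCL6. With 1 library left out NFIA ranged from -0.69 to -0.17 and BCL6 from 0.16 to 0.77. IRF8, which directs monocytes and dendritic cells, had 11.2 and 12.4 CPM in the vector libraries and 11.7 and 10.9 CPM in the JMJD3 libraries, and the erythroid and megakaryocytic factor NFE2 had 62.1 and 70.1 CPM in the vector libraries and 71.0 and 69.0 CPM in the JMJD3 libraries, with overlapping groups for both. BCL11A, a silencer of fetal globin genes, had 26.6 and 26.9 CPM in the vector libraries and 30.0 and 26.9 CPM in the JMJD3 libraries, also with overlapping groups. ZEB2 passed as higher within lane 17, with a log2 fold change of 0.34 against 0.086 in all 4 libraries, and MEF2C passed as lower without vector replicate 2, at -0.52 against -0.32. The 20 members called in all 4 libraries kept their direction within lane 17, in a fit that reuses the same libraries and so is no separate test.

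**Figure D3:**
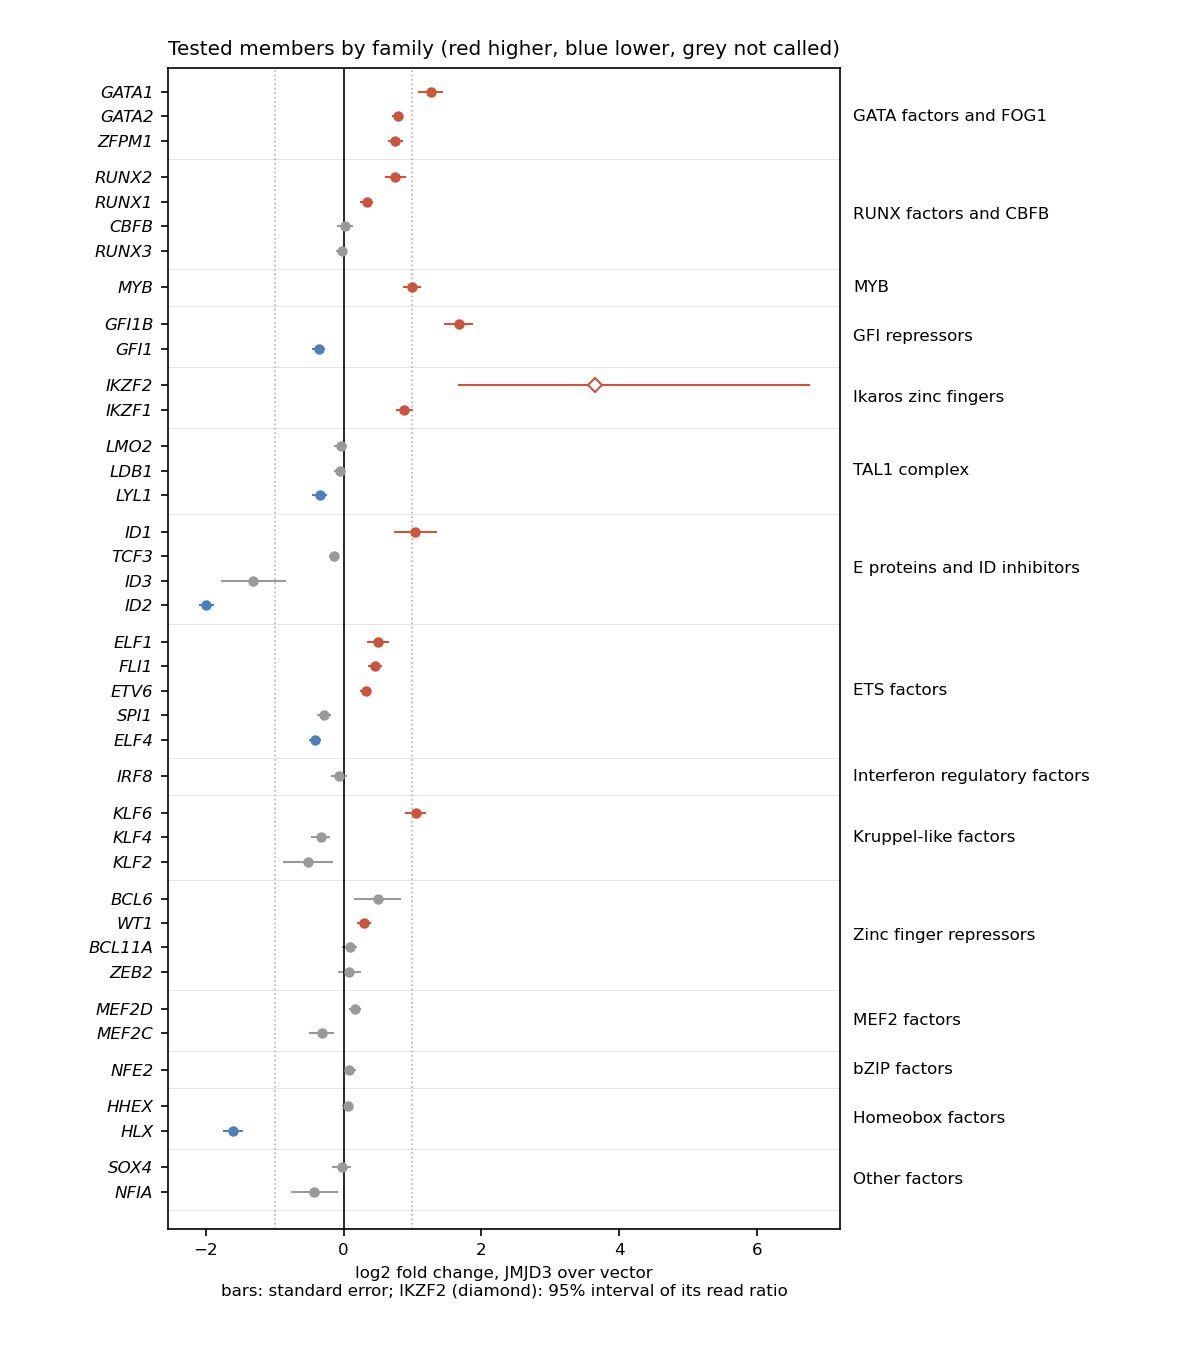
Log2 fold change of JMJD3 over vector for the 39 tested members, grouped by family, with red for higher, blue for lower and grey for not called in edgeR. Bars are standard errors, the diamond of IKZF2 is its read ratio with the 95% counting interval, dotted lines mark a 2-fold change, and the GATA family stands wholly to the right while ID1 and ID2 stand apart on opposite sides.

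Genes of the same families that are not among the 47 members numbered 78, of which 53 were tested. In edgeR 13 of these were higher and 10 lower, with a median log2 fold change of 0.019. These counts changed when 1 library was left out, as did those over all tested genes, and both ranges are given below. With all 4 libraries the calls were 24.5% and 18.9% of the tested relatives, near the 21.6% and 19.1% of all tested genes. BCL11B, counted among the 13, passed the filter only through its JMJD3 libraries and so had to differ, and without it 12 of 52 relatives (23.1%) were higher. ZEB1, the relative of ZEB2, had 17.1 and 11.1 CPM in the vector libraries and 33.8 and 35.4 CPM in the JMJD3 libraries (log2 fold change 1.30 ± 0.20, 1.60 within lane 17, edgeR adjusted p = 0.00408). The ETS repressor ELK3 had 15.7 and 12.6 CPM in the vector libraries and 31.1 and 33.9 CPM in the JMJD3 libraries (log2 fold change 1.20 ± 0.13, 1.32 within lane 17, edgeR adjusted p = 0.00201), and ETS1, a lymphoid ETS factor, had 50.9 and 41.3 CPM in the vector libraries and 94.1 and 104 CPM in the JMJD3 libraries (log2 fold change 1.10 ± 0.12, 1.22 within lane 17, edgeR adjusted p = 0.00201). These 3 were the largest rises among called relatives with at least 1 FPKM. Among called relatives with at least 1 FPKM the largest falls were those of IRF5, ETS2 and NFE2L3. IRF5, an interferon regulatory factor of myeloid cells, had 3.30 and 3.02 CPM in the vector libraries and 1.23 and 1.28 CPM in the JMJD3 libraries (log2 fold change -1.33 ± 0.18, -1.30 within lane 17, edgeR adjusted p = 0.00306). ETS2 had 63.0 and 59.8 CPM in the vector libraries and 35.8 and 36.2 CPM in the JMJD3 libraries, opposite in direction to ETS1 (log2 fold change -0.77 ± 0.093, -0.77 within lane 17, edgeR adjusted p = 0.00233). NFE2L3, related to NFE2, had 20.5 and 21.6 CPM in the vector libraries and 14.7 and 14.5 CPM in the JMJD3 libraries (log2 fold change -0.53 ± 0.10, -0.61 within lane 17, edgeR adjusted p = 0.00848), a call lost without JMJD3 replicate 1 and without JMJD3 replicate 2. MYBL2 was the most abundant relative.

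Cofactors known to bind the members were 22 in number, all tested. In edgeR 1 was higher and 7 were lower, or 4.55% and 31.8% against 21.6% and 19.1% of all tested genes, with a median log2 fold change of -0.14. The count of lower cofactors was 1 without JMJD3 replicate 1, 1 without JMJD3 replicate 2 and 12 without vector replicate 2, where 1368, 1110 and 3419 of all tested genes were lower. With upper quartile scaling it was 4. MTA2, a subunit of the NuRD deacetylase complex, had 473 and 509.7 CPM in the vector libraries and 319 and 321 CPM in the JMJD3 libraries (log2 fold change -0.62 ± 0.075, -0.72 within lane 17, edgeR adjusted p = 0.00235). SSBP4 and SSBP3, which bind LDB1, had log2 fold changes of -0.37 ± 0.11 and -0.32 ± 0.078 (edgeR adjusted p = 0.0390 and 0.0193). RCOR1 (CoREST), which links KDM1A to GFI1 and GFI1B, was the 1 higher cofactor at 67.0 and 51.3 CPM in the vector libraries and 79.3 and 84.2 CPM in the JMJD3 libraries (log2 fold change 0.47 ± 0.14, 0.63 within lane 17, edgeR adjusted p = 0.0337). Without vector replicate 2 the log2 fold changes were 0.28 for RCOR1 and -0.22 for SSBP4. KDM1A itself, named after its values were seen, was lower at 229.8 and 232 CPM in the vector libraries and 189 and 189 CPM in the JMJD3 libraries (log2 fold change -0.29 ± 0.072, -0.34 within lane 17, edgeR adjusted p = 0.0202). The calls of SSBP3, SSBP4, RCOR1 and KDM1A were lost without JMJD3 replicate 1 and without JMJD3 replicate 2. There the log2 fold changes were -0.32 and -0.31 for SSBP3 and -0.38 and -0.36 for SSBP4. Those of RCOR1 were 0.51 and 0.43, and those of KDM1A -0.29 and -0.28.

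Lineage markers show what these levels accompanied. The promyelocyte markers MPO, PRTN3, AZU1, CTSG and CD33 were expressed in all 4 libraries, MPO the most, while ELANE was near 0 in each. Their summed level was 16577 and 17373 CPM in the vector libraries and 10474 and 10436 CPM in the JMJD3 libraries. Of the 5 tested, 4 were lower and CD33 was higher in edgeR. CTSG (cathepsin G) went from 145 and 164 CPM to 11.0 and 9.60 CPM (log2 fold change -3.91 ± 0.12, -4.04 within lane 17, edgeR adjusted p = 9.25e-05). PRTN3 (proteinase 3) had 2096 and 2535 CPM in the vector libraries and 685 and 636 CPM in the JMJD3 libraries (log2 fold change -1.81 ± 0.11, -1.98 within lane 17, edgeR adjusted p = 0.000394). MPO (myeloperoxidase) had 13876 and 14109.9 CPM in the vector libraries and 9379 and 9421 CPM in the JMJD3 libraries (log2 fold change -0.57 ± 0.059, -0.63 within lane 17, edgeR adjusted p = 0.00168), and AZU1 (azurocidin) gave log2 fold change -0.56 ± 0.12, -0.76 within lane 17, edgeR adjusted p = 0.0119. The surface receptor CD33 had 65.1 and 68.7 CPM in the vector libraries and 83.5 and 79.7 CPM in the JMJD3 libraries (log2 fold change 0.29 ± 0.087, edgeR adjusted p = 0.0380), a call lost with the DESeq2 size factors, with no filter on low counts and without JMJD3 replicate 1 or JMJD3 replicate 2. It was also lost in both tests on FPKM, where CD33 had 61.7 and 66.4 FPKM in the vector libraries and 68.5 and 65.1 FPKM in the JMJD3 libraries, with overlapping groups. ELANE (neutrophil elastase) was not tested, at 0.339 and 0.192 CPM in the vector libraries and 0.0268 and 0.0448 CPM in the JMJD3 libraries.

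Markers of mast cells and basophils rose beside the GATA members. Of 6 such markers 4 were tested and all 4 were higher in edgeR, and their summed level was 33.8 and 33.1 CPM in the vector libraries and 341 and 332 CPM in the JMJD3 libraries. Nearly all of it came from HDC, the enzyme that makes histamine, at 29.7 and 29.2 CPM in the vector libraries and 328 and 319 CPM in the JMJD3 libraries (log2 fold change 3.46 ± 0.083, 3.43 within lane 17, edgeR adjusted p = 3.23e-05). The tryptase genes TPSB2 and TPSAB1, whose sequences are so alike that their reads may be split wrongly, had log2 fold changes of 2.66 ± 0.20 and 2.05 ± 0.23 (edgeR adjusted p = 0.000901 and 0.00199). MS4A2, a chain of the IgE receptor, gave log2 fold change 1.30 ± 0.14, edgeR adjusted p = 0.00198 and was named after its values were seen. FCER1A, which binds IgE, was at 0 in every library, and CPA3, a mast cell protease, was at 0.247 CPM in each vector library and 0 in the JMJD3 libraries. Whether the rise of these markers and that of GATA2 are linked was not tested.

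Markers of the other lineages varied in level. Of 10 erythroid markers 8 were at 0 in every library, all 5 globin genes among them, and EPB42, the 1 tested, did not pass (log2 fold change 0.75 ± 0.42, edgeR adjusted p = 0.186). The summed erythroid level was 0.432 and 0.987 CPM in the vector libraries and 1.26 and 1.05 CPM in the JMJD3 libraries. Of 6 megakaryocyte markers 2 were tested, of which 1 was higher and 1 was not called, and GP9 and PF4 were at 0 in every library. ITGA2B, a platelet integrin chain that was named after its values were seen and lies below the limit of 1 FPKM, had 0.586 and 0.658 CPM in the vector libraries and 1.74 and 1.61 CPM in the JMJD3 libraries (log2 fold change 1.43 ± 0.24, edgeR adjusted p = 0.00542). Of 6 monocyte markers 3 were tested, of which 1 was higher and 2 were not called. FCGR3A and HLA-DRA were at 0, and LYZ, the most abundant, did not pass (log2 fold change -0.18 ± 0.11, edgeR adjusted p = 0.217). CSF1R, the macrophage growth factor receptor, had 4.93 and 3.84 CPM in the vector libraries and 12.9 and 12.9 CPM in the JMJD3 libraries (log2 fold change 1.56 ± 0.15, 1.70 within lane 17, edgeR adjusted p = 0.00140). In the B cell list 3 of 7 markers were tested, of which 1 was higher and 2 were not called, and MS4A1 and VPREB1 were at 0. The higher marker, CD79A, had 7.65 and 8.61 CPM in the vector libraries and 15.3 and 13.7 CPM in the JMJD3 libraries (log2 fold change 0.83 ± 0.13, 0.71 within lane 17, edgeR adjusted p = 0.00416). In the T cell list 2 of 6 markers were tested, of which 1 was higher and 1 was not called. The higher marker, CD2, had 3.48 and 4.85 CPM in the vector libraries and 10.8 and 10.8 CPM in the JMJD3 libraries (log2 fold change 1.38 ± 0.17, 1.11 within lane 17, edgeR adjusted p = 0.00250), while CD3D, CD3E and CD3G were too low to be tested. Of the stem and progenitor markers FLT3, a growth factor receptor, fell from 24.0 and 21.7 CPM to 10.6 and 11.5 CPM (log2 fold change -1.05 ± 0.11, -1.02 within lane 17, edgeR adjusted p = 0.00189), and CD34 and KIT were too low to be tested. In all, 21 of 53 lineage markers were tested, of which 9 were higher and 5 lower in edgeR. These are 42.9% and 23.8% of those tested, against 21.6% and 19.1% of all tested genes. Whether the mix of cells in the pool changed was not tested.

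**Figure D4:**
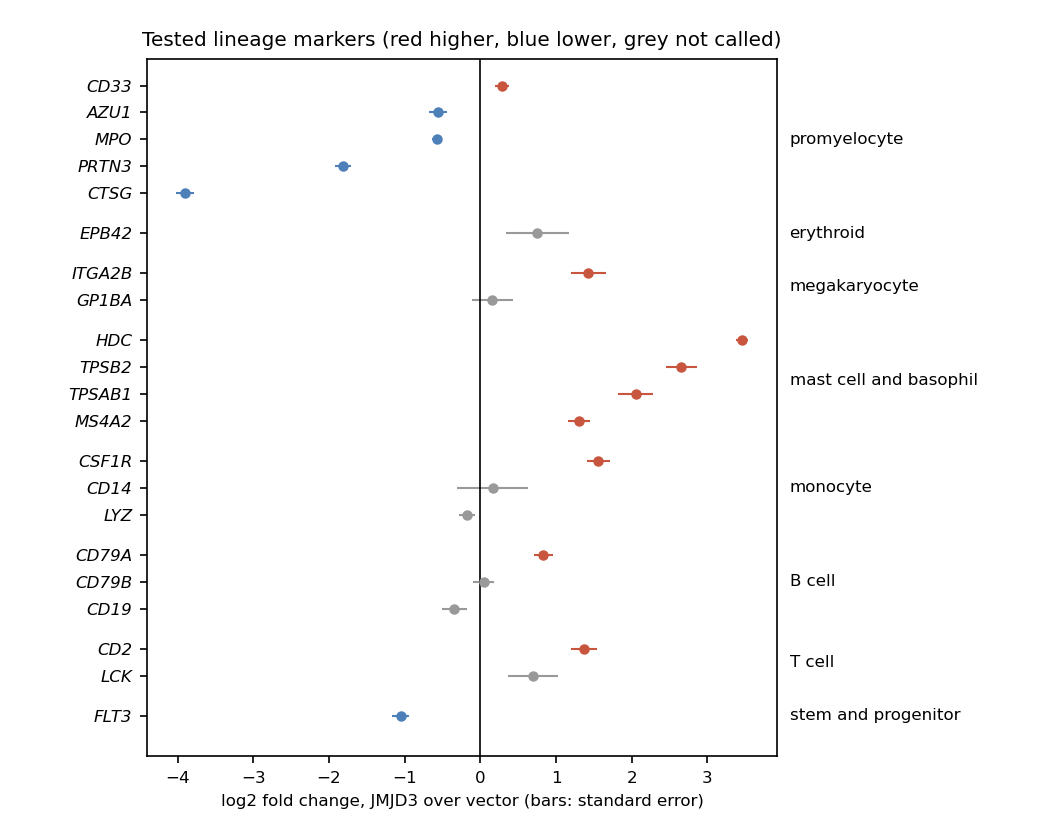
Log2 fold change of JMJD3 over vector with its standard error for the 21 tested lineage markers, grouped by lineage, with red for higher, blue for lower and grey for not called in edgeR. The promyelocyte markers other than CD33 lie left of 0 and the 4 mast cell and basophil markers lie right of it.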

How the data were processed

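RNA of 4 NB4 libraries was compared, 2 with the control vector and 2 with JMJD3. For each gene the authors deposited the estimated count of every library and its FPKM, along with their own fold changes, p-values and calls, which were not used. The submitters' processing notes name CASAVA 1.8, TopHat2 2.0.4, RSEM, edgeR and GRCh38, while the design text names other aligners with Cufflinks and the study's methods name STAR, HTSeq-count and DESeq2. Which of these made the table is not settled by these sources. Between 92.7% and 93.1% of a library's positive deposited counts are whole multiples of 1 value per library (1.14 and 1.05 for the vector, 0.993 and 0.829 for JMJD3), so each library had been multiplied by a factor. A multiple was taken as whole within 0.01 or, at high read numbers, within a small fixed share of the read number. Read numbers and depth given here have that factor divided out, whereas tests used the deposited estimated counts, rounded.

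The test was edgeR's (4.0.16, R 4.3.3) quasi-likelihood test in 1 fit of all 4 libraries, after filterByExpr and TMM scaling, with Benjamini-Hochberg adjustment. CPM uses TMM-scaled totals, and a standard error is the log2 fold change divided by the square root of F. The code of the tests was checked on simulated counts with far fewer changed genes than were called here, which does not show how the tests perform on these data. Symbols of all 47 members matched RefSeq, from which positions and promoters were taken. Genes named were members with an adjusted p under 0.05 and a log2 fold change of at least 0.58 in size, the 5 with the highest mean FPKM, up to 3 higher and 3 lower genes per list with a mean of at least 1 FPKM, and the promyelocyte markers. Other members were named to account for all 47, and BCL11B, EPB42, ITGA2B, KDM1A, LYZ, MS4A2 and MYBL2 after their values were seen. Members and lists were chosen with earlier results of these data known. Alternatives used DESeq2 1.42.0, limma 3.58.1 on log2 FPKM with 1 or 0.1 added first, other scalings and filters, a replicate block and each library left out.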

Additional observations from a re-analysis of the deposited data

How the results depend on the processing

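Of the 20 called members, 8 (GATA1, GATA2, MYB, GFI1B, IKZF1, KLF6, ID2 and HLX) kept direction and call under all 14 alternatives, and no called member turned its direction. KDM6B stayed higher in each, with log2 fold changes from 1.19 to 1.58. Counts moved more. The members higher and lower, 15 and 5 in edgeR, were 8 and 3 with no filter and 8 and 3 at an adjusted p under 0.01, and leaving out 1 library gave 9 to 15 higher and 2 to 7 lower. The 5 rises past 2-fold were 2 with limma on log2(FPKM + 1) and 3 to 6 with 1 library left out. Of all tested genes, 3292 were higher and 2906 lower. With no filter these were 1893 and 1776, at an adjusted p under 0.01 1468 and 1300, and with 1 library left out 1890 to 4248 and 1110 to 4212. Limma found 2046 higher with 1 added to FPKM and 2032 with 0.1. Relatives, 13 higher and 10 lower, were 5 and 6 with 1 added and 6 and 6 with 0.1, 7 and 6 with no filter, 6 and 5 at an adjusted p under 0.01, 5 to 17 and 2 to 13 with 1 library left out, and 8 higher in the DESeq2 Wald test. Cofactors, 1 higher and 7 lower, were 0 and 3 in both limma tests, 0 and 3 with no filter and 0 and 1 at an adjusted p under 0.01, 4 lower with upper quartile scaling, and 0 to 2 and 1 to 12 with 1 library left out. Where no cofactor was higher, between 1 and 2 were at an unadjusted p under 0.05 in the same edgeR or limma fit, and the DESeq2 Wald test called 1. Signs turned only for members without a call in all 4 libraries. With limma on log2(FPKM + 0.1) and log2(FPKM + 1) the log2 fold changes were 0.27 and 0.27 for RUNX3, 0.14 and 0.13 for IRF8, 0.21 and 0.13 for KLF2, -0.28 and -0.27 for BCL11A and 0.11 and 0.035 for NFIA. Upper quartile scaling gave 0.011 for RUNX3 and 0.013 for SOX4, and CBFB fell to -0.010 with DESeq2 size factors and -0.010 in the DESeq2 Wald test. With 1 library left out the ranges were -0.078 to 0.0019 for RUNX3, -0.14 to 0.15 for CBFB, -0.18 to 0.0031 for IRF8, -0.16 to 0.34 for ZEB2, -0.046 to 0.17 for NFE2 and -0.19 to 0.11 for SOX4. The cause of these differences was not tested. Same-numbered libraries deviated in opposite directions across genes (correlation -0.25). With 2 libraries per group this value cannot show whether libraries of different groups were paired, and no source states a pairing. The replicate block gave 3267 and 2415 calls, 13 and 5 among members, 14 and 8 among relatives and 2 lower cofactors, with 3 members lower by at least 2-fold, as in the crossed block and without JMJD3 replicate 1, against 2 in the fit of all 4 libraries without a block. A crossed replicate block, chosen after seeing the data, gave 4335 and 3772 calls, 15 and 8 among members, 20 higher relatives and 2 higher cofactors. Dividing out the factor of each library, also chosen after seeing the data, gave 3304 and 2915 calls and the same 20 member calls. With 2 libraries per group, members at a few reads, such as IKZF2 and ID3, are limited by counting error.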

Other observations

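The deposited counts and FPKM values of the same gene did not always move together, so the length implied by their ratio differed between libraries. Taken as the log2 of count over FPKM and centred on the median of all tested genes in each library, this length differed between JMJD3 and vector by at least 0.3 in size for 6 of 39 tested members and for 10.7% of all tested genes. The members were RUNX3, CBFB, IKZF2, KLF2, BCL11A and NFIA. For BCL11A, which has long and short isoforms, the relative length was -0.61 and -0.58 in the vector libraries and -0.21 and -0.26 in the JMJD3 libraries, while its FPKM was 23.0 and 23.2 FPKM in the vector libraries and 19.5 and 18.4 FPKM in the JMJD3 libraries. For RUNX3 the relative length was 0.87 and 1.00 in the vector libraries and 0.56 and 0.69 in the JMJD3 libraries, with 27.8 and 26.0 FPKM in the vector libraries and 33.2 and 31.9 FPKM in the JMJD3 libraries, whereas its CPM values overlapped between the groups. For CBFB it was 0.23 and 0.56 in the vector libraries and 0.030 and -0.053 in the JMJD3 libraries, with vector replicate 2 apart from vector replicate 1. KLF2 had 0.0015 and -0.021 in the vector libraries and -0.60 and -1.01 in the JMJD3 libraries. Isoform levels were not analysed here, and what set these lengths was not tested.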
